A study of Rattus norvegicus with 6 samples.

Results

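Gapdh and Ldha, a pair of glycolysis and lactate enzymes of ordinary body cells, are 2 of the 38 genes with an identified mRNA probe on an array made for PIWI-interacting RNAs (piRNAs) of the rat. They were read by 7 of its 39886 probes apart from controls, found by the RefSeq mRNA accession printed for each probe. Of the 7, 3 carry the Gapdh accession NM_017008.3 and 4 carry the Ldha accession NM_017025 (with version NM_017025.1 for the custom ones), and every probe was spotted 10 times. The Gapdh probes CUST_34, CUST_35 and CUST_36 and the Ldha probes CUST_16, CUST_17 and CUST_18 are custom designs, here called by the start of their identifiers, and A_44_P210461 is an Ldha probe of the manufacturer's catalogue. The study asked how DEHP, di(2-ethylhexyl) phthalate, a plasticizer known to harm the testis, alters RNA signals in rat testis. Per the labels, 3 male Sprague-Dawley rats received DEHP by mouth at 1000 mg/kg/day for 28 days and 3 received corn oil alone. The testis of each rat was read on its own one-colour array, at an age of 11 weeks in both groups. The groups follow the sample titles. The series' design text swaps the treatments of the groups, and marks in the names of the deposited files, which were not used, could be read the same way. Exchanging the groups would turn the sign of every change reported here.

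Glycolysis splits glucose into pyruvate. Gapdh oxidises glyceraldehyde 3-phosphate and makes NADH on the way, and lactate dehydrogenase turns pyruvate into lactate while restoring NAD. In the testis, Sertoli cells, the somatic nurse cells of the tubules, export lactate as a fuel for the developing germ cells. Meiotic and later germ cells in addition use enzyme forms of their own, Gapdhs and Ldhc, which have separate genes. Gapdh is also widely used as a reference gene on the assumption that its level stays constant between samples. In whole testis, fewer cells of a type and less RNA per cell cannot be told apart.

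The promoters of both genes are printed here because probes of both rose in DEHP testis. They are the RefSeq promoter windows of build GRCr8, 250 bases before and 50 after the gene's start, read along the gene's strand. Capitals mark every match, on either strand, to the TATA box letters TATAAA, the GC box letters GGGCGG or the letters ACGTG, which form a core of sites bound by the hypoxia factor HIF-1. Gapdh lies at chr4:159652418-159652717 on the minus strand and Ldha at chr1:106507842-106508141 on the plus strand.
Gapdh: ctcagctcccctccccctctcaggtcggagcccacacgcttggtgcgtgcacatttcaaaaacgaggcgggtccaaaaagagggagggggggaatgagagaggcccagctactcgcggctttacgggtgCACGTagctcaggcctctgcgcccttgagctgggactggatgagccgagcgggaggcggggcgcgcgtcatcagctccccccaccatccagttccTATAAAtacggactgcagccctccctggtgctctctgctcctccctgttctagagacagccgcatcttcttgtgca
Ldha: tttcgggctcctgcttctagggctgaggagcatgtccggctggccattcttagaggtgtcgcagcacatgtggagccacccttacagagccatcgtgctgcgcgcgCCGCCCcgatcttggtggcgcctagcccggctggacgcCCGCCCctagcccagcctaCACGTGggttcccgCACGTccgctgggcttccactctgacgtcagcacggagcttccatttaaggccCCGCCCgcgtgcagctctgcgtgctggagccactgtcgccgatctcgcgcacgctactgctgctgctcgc
Gapdh held TATAAA beginning 26 bases before the start and 1 match to ACGTG, read from the opposite strand. Ldha held 3 matches to GGGCGG and 3 to ACGTG, of which the matches beginning 87 and 86 bases before the start overlap on opposite strands, and it held no TATAAA in this window. Of 33469 promoters of the same length, 14.2% held TATAAA, 33.1% GGGCGG and 19.3% ACGTG. These matches describe the letters only.

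The 7 probes were well above background on all 6 arrays. Over all probes, 22336 to 23866 were well above background on the DEHP arrays and 16802 to 23820 on the control arrays, with control 1 the lowest. A scan identifier in the headers was taken to mark the slide: control 1 lay with the 3 DEHP arrays and controls 2 and 3 lay on the other slide, so treatment and slide are largely confounded. Values are log2 signals relative to the 75th percentile of all probes on the same array, which stands at 0. A change is the DEHP mean minus the control mean, tested with limma across 23090 probes. Of these, 10.7% passed a threshold of 0.05 on the adjusted p: 4.44% of the 23090 rose and 6.26% fell in DEHP testis, and the median change over the 23090 probes was 0.055. The balance turned with the scaling: 1026 probes rose and 1445 fell as scaled here, 2501 rose and 1143 fell when only probes detected on all 6 arrays set the 75th percentile, and 298 rose and 2840 fell with median centring. Of the 7 Gapdh and Ldha probes, 3 rose, 1 fell and 3 did not pass, with a median change of 0.31. The DEHP and control values did not overlap in 5 of the 7, against 37.5% of all probes tested (20.6% with DEHP above control and 16.9% with DEHP below it). Of the 49 other mRNA probes tested, 21 rose and 1 fell, with a median change of 0.44. The groups did not overlap in 37 of these 49, so lack of overlap was common among mRNA probes.

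**Figure D1:**
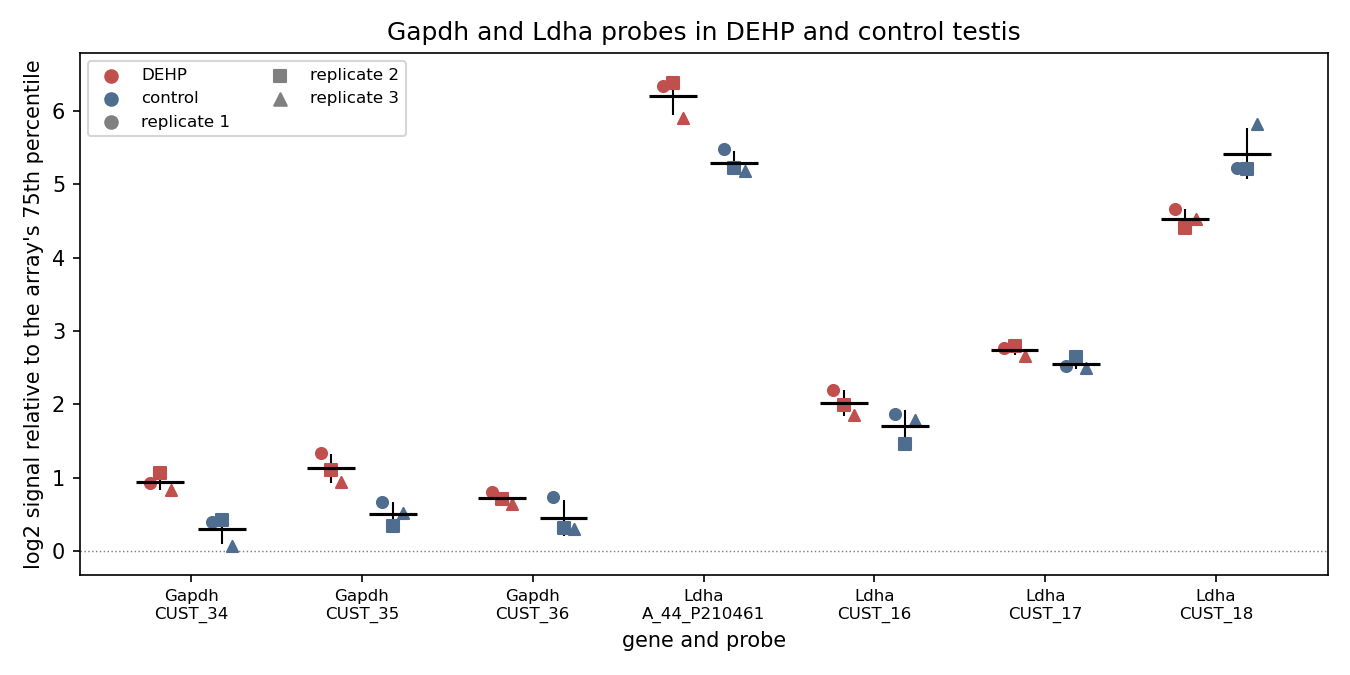
Log2 signal relative to the array's 75th percentile (y axis) of each Gapdh and Ldha probe (x axis) on the 3 DEHP arrays (red, left) and the 3 control arrays (blue, right), with marker shape giving the replicate number, bars the group mean and lines ± 1 SD. CUST_34, CUST_35 and A_44_P210461 lie higher and CUST_18 lower in DEHP testis without overlap; heights of different probes are not comparable.

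Gapdh signal rose in DEHP testis on 2 of its 3 probes, by 1.57-fold and 1.53-fold. CUST_34 read 0.93, 1.07 and 0.84 in DEHP testis, against 0.40, 0.43 and 0.069 in control testis. All 3 DEHP values were above all 3 control values, and control 3 was the lowest array. The means were 0.95 ± 0.12 and 0.30 ± 0.20 (SD, n = 3 each). CUST_34 thus rose by 0.65 with a standard error of 0.14, or 1.57-fold (limma, adjusted p = 0.0264). CUST_35 read 1.33, 1.10 and 0.94 in DEHP testis, against 0.66, 0.34 and 0.52 in control testis. These groups again did not overlap, and DEHP 1 was the highest array. CUST_35 rose by 0.62 with a standard error of 0.15, or 1.53-fold (limma, adjusted p = 0.034). The Gapdh signals were weak. In intensity units CUST_34 read 135, 175 and 135 in DEHP testis, against 70, 112 and 62 in control testis. Its mean local background was 15.3 to 20.4. The size of the rise depended on the background correction: with normexp and 75th percentile centring it was 0.43 for CUST_34 and 0.47 for CUST_35.

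The third Gapdh probe did not pass. CUST_36 read 0.81, 0.71 and 0.65 in DEHP testis, against 0.73, 0.32 and 0.30 in control testis. Control 1 lay above DEHP 2 and DEHP 3, so the groups overlapped, while controls 2 and 3 lay below every DEHP array. Its difference was 0.27, with a 95% interval of -0.064 to 0.60 (limma, adjusted p = 0.239), a range that takes in no change as well as a change close to that of the other Gapdh probes. On the slide that held both groups, control 1 is the lone control. The 3 Gapdh differences there were 0.55, 0.46 and -0.0090 for CUST_34, CUST_35 and CUST_36. A lone control has no spread of its own, so no call is read from that slide.

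Ldha probes differed in direction. The catalogue probe A_44_P210461 read 6.33, 6.37 and 5.90 in DEHP testis, against 5.47, 5.22 and 5.18 in control testis. The lowest DEHP array, DEHP 3, was above the highest control array, control 1. The means were 6.20 ± 0.26 and 5.29 ± 0.16 (SD, n = 3 each), a rise of 0.91 (standard error 0.19), or 1.88-fold (limma, adjusted p = 0.0207). Before any scaling between arrays, the mean signal of its spots was 5692, 6902 and 4512 intensity units in DEHP testis, against 2369, 3094 and 2143 in control testis. Every DEHP signal was above every control signal before centring too.

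The custom probe CUST_18 moved the other way. It read 4.66, 4.40 and 4.53 in DEHP testis, against 5.22, 5.20 and 5.82 in control testis. Every DEHP value was below every control value, and control 3 stood above the other controls. It fell by 0.89, with 0.20 as the standard error (limma, adjusted p = 0.0268), and control testis was 1.85-fold above DEHP testis. In intensity units its signals were 1781, 1760 and 1737 in DEHP testis, against 2028, 3102 and 3376 in control testis.

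The other custom Ldha probes lay between these. CUST_16 read 2.20, 2.00 and 1.85 in DEHP testis, against 1.87, 1.46 and 1.79 in control testis. DEHP 3 and control 1 were nearly equal, so the groups overlapped, and the difference was 0.31 with a 95% interval of -0.049 to 0.67 (limma, adjusted p = 0.21). CUST_17 read 2.77, 2.79 and 2.66 in DEHP testis, against 2.52, 2.64 and 2.50 in control testis. Its groups did not overlap, though DEHP 3 and control 2 were close, and the difference of 0.19 did not pass (limma, adjusted p = 0.36, 95% interval -0.11 to 0.49). On the slide with both groups the differences were 0.73 for A_44_P210461, 0.15 for CUST_16, 0.22 for CUST_17 and -0.70 for CUST_18. Control 1 is alone in its group there, so no call is read from that slide.

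Differences between probes of a gene within an array do not depend on how arrays are centred. A_44_P210461 minus CUST_18 was 1.68, 1.97 and 1.38 on the DEHP arrays, against 0.25, 0.022 and -0.64 on the control arrays. The groups lay far apart, with means of 1.67 ± 0.30 and -0.12 ± 0.46 (SD, n = 3 each), and the changes of these Ldha probes differed by 1.80 with a standard error of 0.32. Control 1, on the slide of the DEHP arrays, lay below all of them. The catalogue probe also changed by 0.60 more than CUST_16 and by 0.73 more than CUST_17, again with no overlap between groups. The log2 changes of CUST_16 and CUST_17 lay above that of CUST_18 by 1.20 and 1.07. Those of CUST_16 and CUST_17 differed by 0.12 with a standard error of 0.18, which lay within the spread between rats.

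Among Gapdh probes, CUST_34 and CUST_35 changed by 0.38 and 0.35 more than CUST_36, with no overlap between groups. CUST_34 and CUST_35 themselves differed by 0.029 with a standard error of 0.20. Over the 9 pairs compared, 7 had no overlap and reached the smallest p that 3 against 3 arrays allow in a two-sided exact permutation test, 0.1, or 0.129 after Benjamini-Hochberg adjustment. With 3 against 3 arrays this test cannot carry a pair past 0.05.

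**Figure D2:**
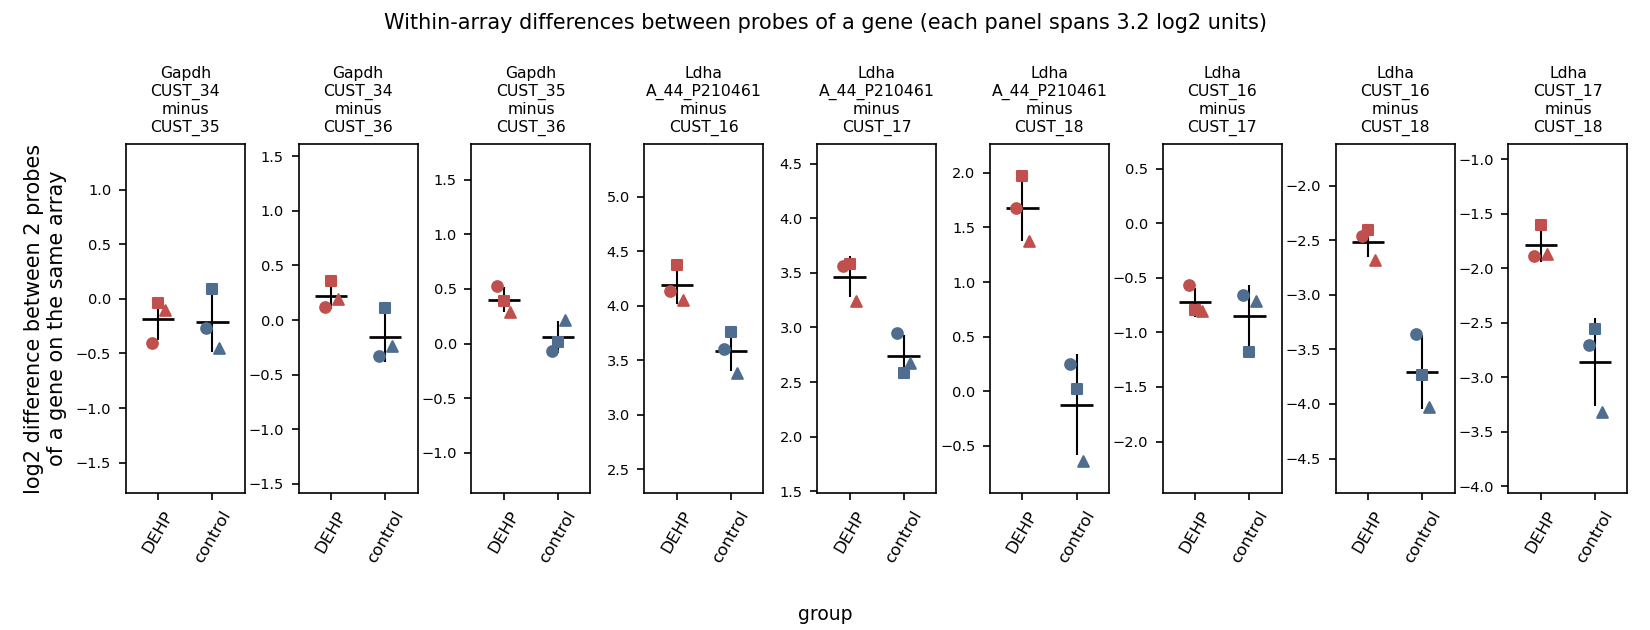
Difference in log2 signal between 2 probes of the same gene on the same array (y axis, every panel spanning the same height) for the 9 probe pairs, in DEHP (red, left) and control (blue, right) testis, with marker shape for the replicate number, bars for means and lines for ± 1 SD. The groups separate in 7 panels, most widely for A_44_P210461 minus CUST_18, at 1.67 ± 0.30 in DEHP and -0.12 ± 0.46 in control testis.

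The 10 spots of a probe, scattered over the array, show how evenly it was read. For CUST_18 the SD over spots was 0.036 to 0.051 log2 units on the DEHP arrays and 0.24 to 0.32 on the control arrays. Its highest spot was 2.01-fold, 1.97-fold and 1.70-fold above its lowest on controls 1, 2 and 3, and at most 1.10-fold on any DEHP array. The uneven spots thus appeared on control arrays of both slides. For the other 6 Gapdh and Ldha probes the SD was 0.031 to 0.092 on DEHP arrays and 0.042 to 0.12 on control arrays. Over the 49 other mRNA probes tested it was 0.014 to 0.28 on DEHP arrays and 0.022 to 0.43 on control arrays. Their medians were 0.066 and 0.089, so the SD of CUST_18 on control arrays was high but within their range. Averaged within groups, the spot SD of CUST_18 was 6.80 times as large on control as on DEHP arrays, the highest ratio among 56 mRNA probes tested, whose median was 1.31 and whose next highest was 3.88, for a probe of the glycolytic enzyme gene Pgk1.

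The low and high spots of CUST_18 fell at the same places on controls 2 and 3, which share a slide, with r = 0.93 over 10 spots that share their position. Control 1 had r = 0.23 and 0.32 with these arrays. The lowest spot of control 1, at 4.62, read 5.45 and 5.96 on controls 2 and 3. The lowest spot of controls 2 and 3, at 4.58 and 5.27, was the next lowest on control 1, at 4.99. A single spot can thus weigh heavily in r over 10 spots, and part of the pattern was shared between slides. Between the groups, DEHP 1 had r = 0.75 with control 1 on its slide, and DEHP 3 had r = 0.51 and 0.49 over 9 spots with controls 2 and 3 on the other slide, against -0.24 with control 1. The remaining pairs of a DEHP and a control array had r of 0.18 to 0.34. Pairs of DEHP arrays, which share a slide, had 0.22 to 0.45. Across spots, the difference between the DEHP mean and the control mean ran between -1.09 and -0.46, below 0 at all 10 spots, with no overlap of the groups at 9 of them. Read by the lowest spot of every probe on every array, CUST_18 had -0.36 and did not pass (limma, adjusted p = 0.256), and read by the highest spot it had -1.15 and passed (limma, adjusted p = 0.00833). With spots spread more widely on control arrays, the lowest spot narrows and the highest widens the gap whatever its size. The calls of A_44_P210461, CUST_34 and CUST_35 held with either spot. Whether the uneven spots bear on the fall of CUST_18 was not tested.

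**Figure D3:**
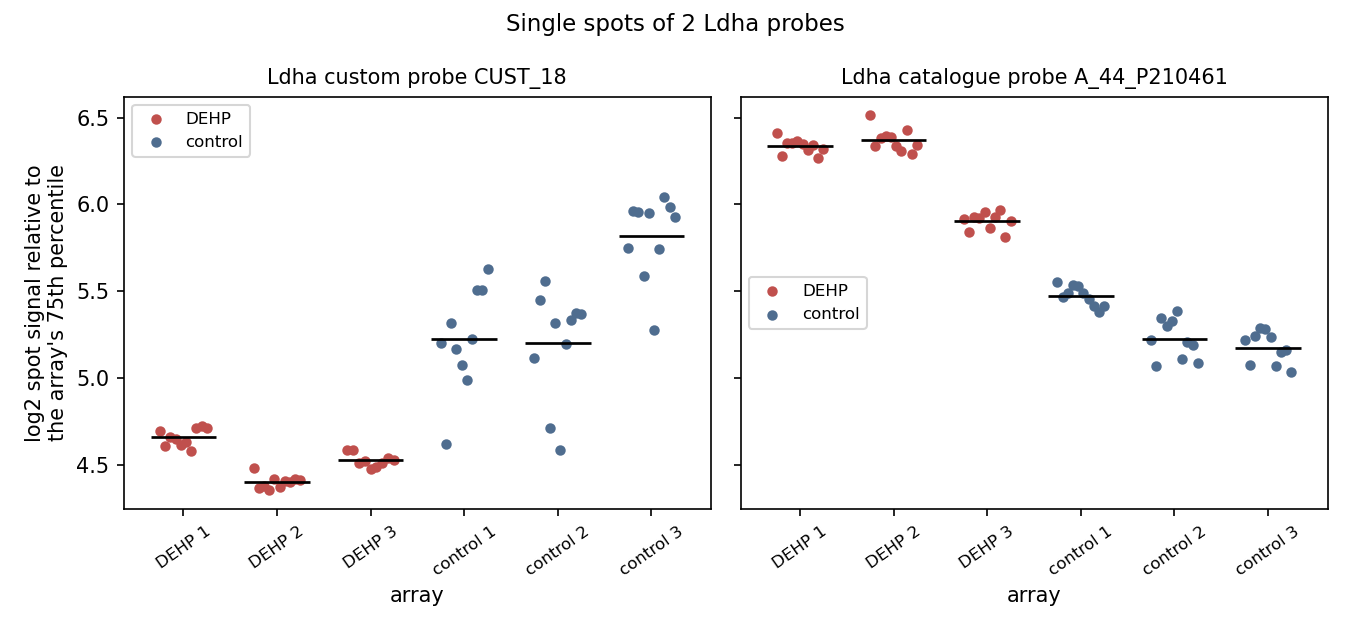
Log2 signal of each single spot relative to the array's 75th percentile (y axis) for the Ldha probes CUST_18 (left panel) and A_44_P210461 (right panel) on the 3 DEHP arrays (red) and the 3 control arrays (blue), with bars for array means. Spots of CUST_18 are tight on DEHP arrays, with an SD of 0.036 to 0.051, and spread on control arrays, with an SD of 0.24 to 0.32, while those of A_44_P210461 are tight throughout.

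Probes of a gene that disagree were not limited to Ldha. Of 9 genes with 3 custom probes tested, the changes within a gene ranged over 1.26 for Sdha, a subunit of succinate dehydrogenase, 1.20 for Ldha and 1.01 for the ribosomal gene Rplp1. Gapdh, with a range of 0.38, ranked seventh, and the 3 probes of B2m, the light chain of MHC class I, were closest, with 0.16. The probe sequences are not used here. The RefSeq gene table of GRCr8 names 79 Gapdh and 30 Ldha pseudogenes, near copies of the mRNA, and how far a probe reads such copies, or Gapdhs and Ldhc, was not tested.

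Of 41 glycolysis and lactate genes listed, 3 had a probe on the array, Gapdh, Ldha and Pgk1. Pgk1, the phosphoglycerate kinase of somatic cells that follows Gapdh in the pathway, had 3 probes, none of which passed. Its CUST_4 read 0.21, -0.097 and 0.010 in DEHP testis, against -0.16, -0.45 and -0.22 in control testis. The groups did not overlap, and the difference was 0.32 (limma, adjusted p = 0.147). The other Pgk1 probes had differences of -0.46 and -0.21, so Pgk1 showed no common direction either. Lactate dehydrogenase B and the germ cell forms of these enzymes were among those listed without a matched probe, so they were not analysed here. Among 4 reference genes listed with a probe on the array, Actb, B2m, Gusb and Hprt1, 4 of 8 probes tested rose and 1 fell, with changes of -0.65 to 0.78, a range that holds all 3 Gapdh values.

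Of 40 cell type markers listed, 1 had a probe, the Leydig cell receptor gene Lhcgr. No marker of another cell type was read, and Lhcgr alone does not give the share of Leydig cells. Lhcgr was well above background on all 6 arrays, and read -0.0082, 0.0079 and -0.35 in DEHP testis, against -0.28, -0.81 and -0.91 in control testis. DEHP 3 lay below control 1, and the difference was 0.55 ± 0.18 (standard error; limma, adjusted p = 0.0784). Lhcgr thus stood higher beside the Gapdh and Ldha probes that rose without passing itself, and its part in their rise was not tested.

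The genes most like Gapdh and Ldha were sought among 33 other genes with a tested mRNA probe, by Pearson correlation over the 6 arrays, which share each array's scaling and the group difference. Each gene entered by its best-matching probe. Custom probes of a gene could differ, with changes of 0.10 to 0.53 for Actb and -0.41 to 0.60 for Rplp1. CUST_34 of Gapdh was closest to Actb, a cytoskeletal actin, at r = 0.99, then to Ppp2r2b, a regulatory subunit of protein phosphatase 2A, at 0.98 and to Rplp1 at 0.97. After removing group means these were 0.96, 0.93 and 0.82. A_44_P210461 of Ldha was closest to Odf2l at r = 0.999, to the exon junction gene Magoh at 0.996 and to Pop7, a subunit of RNase P, at 0.99, or 0.99, 0.98 and 0.93 without group means. Between the probes of Gapdh and Ldha, CUST_34 and A_44_P210461 had r = 0.95, and 0.62 without group means, while CUST_34 and CUST_18 had -0.98 and -0.91. CUST_34 and CUST_35, both of Gapdh, had r = 0.84, and 0.032 without group means, so the genes closest to CUST_34 describe that probe alone. CUST_18 had -0.77 with CUST_35 and -0.89 with A_44_P210461, and 0.23 and -0.31 without group means.

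The calls depended on the slide and on single arrays. With the slide as a block none of the 7 probes passed, and 7 of all probes did. None of the 7 passed without control 3, without DEHP 1 or without DEHP 2, and only A_44_P210461 passed without DEHP 3. The median of all probes moved to 0.31 without centring and to -0.15 with median centring, and under these and the other scalings tried CUST_34, CUST_35, A_44_P210461 and CUST_18 kept their signs. With median centring CUST_18 alone passed.

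**Figure D4:**
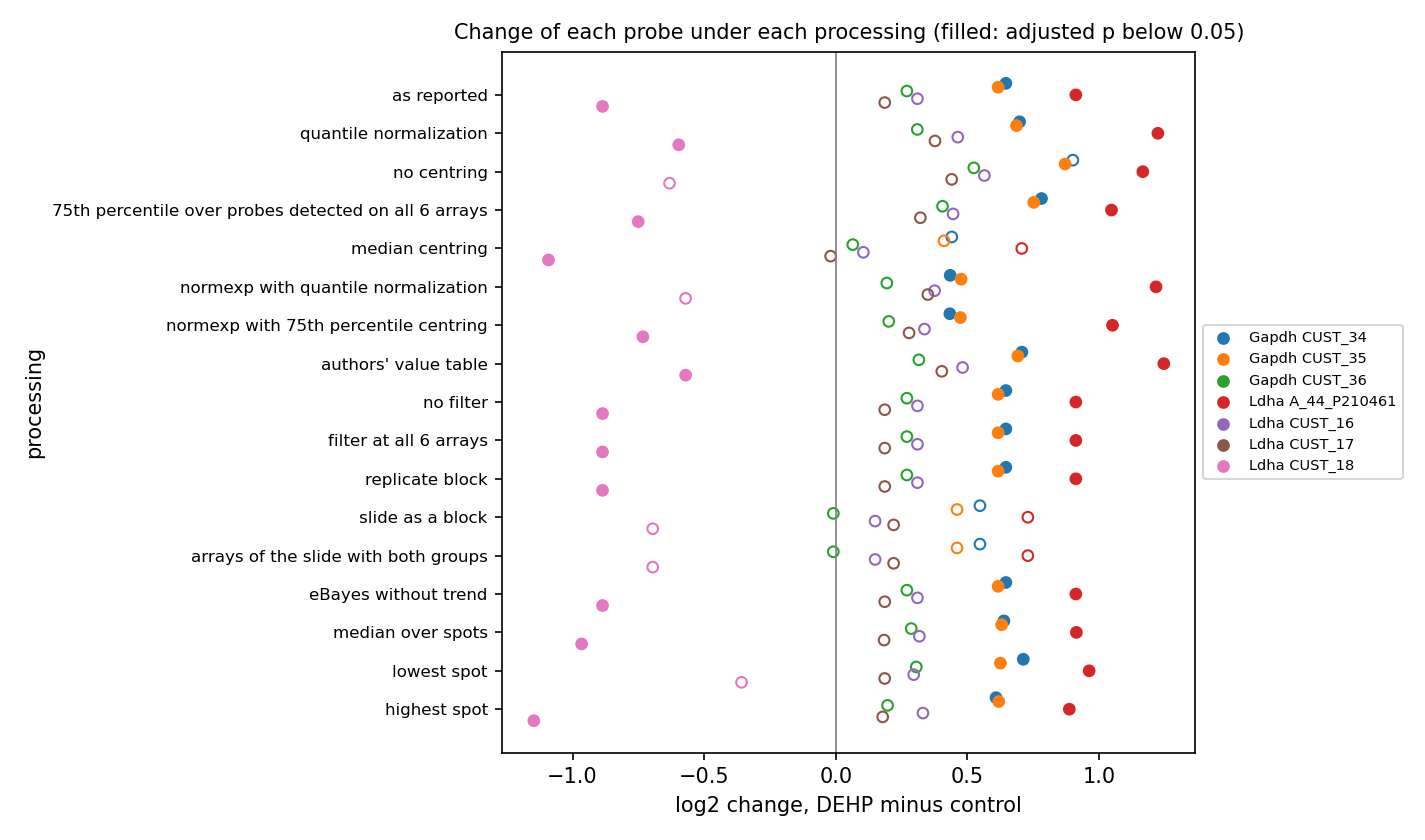
Log2 change, DEHP minus control (x axis), of each Gapdh and Ldha probe (colours) under each processing of all arrays or of the slide with both groups (y axis), filled where the adjusted p was below 0.05. CUST_18 stays left of 0 and CUST_34, CUST_35 and A_44_P210461 stay right of it throughout, while no point is filled with the slide as a block.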

How the data were processed

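Cy3-labelled cRNA was made from 1 ug of RNA per sample, per the labels' protocols. Arrays were read with Agilent Feature Extraction 11.0.1.1, per the file headers, which give each spot a background-subtracted intensity, the median intensity of spot and local background, and other values, here flags of 0 or 1 and grid positions. The authors' deposited value table holds log2 values and served as an alternative. Its normalization was not given in the sources used here.

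Control spots and 65 to 86 outlier spots per array were left out. The log2 processed signal of a probe was the mean of its spots, centred on the 75th percentile of the array. Probes well above background on at least 3 arrays were tested with limma 3.58.1 in R 4.3.3 (intensity trend, Benjamini-Hochberg over 23090 probes, two-sided). The method was also run on simulated data without a slide effect, which cannot show how calls fare where treatment and slide are confounded. The number of arrays limits the precision. A RefSeq table matched 61 of 67 mRNA probes, by accession without version, to 38 genes. All Gapdh and Ldha probes are named, with the 3 other genes of highest correlation to a probe of each and listed genes that have a probe. Genes, lists and tests were chosen with earlier results of these data known. Alternatives covered centring, normalization, background correction, filter, blocks, spots and left-out arrays. Readings by the lowest or highest spot were added after the data were seen. Same-numbered rats correlated, as deviations from group means, at 0.13, 0.46 and 0.076, and differently numbered rats at -0.43 to 0.29. Numbers were not taken to pair rats, a question these values do not settle. Python 3.11.15 and matplotlib 3.10.9 drew the plots.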

Additional observations from a re-analysis of the deposited data

How the results depend on the processing

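Over 22 alternatives, A_44_P210461 ranged between 0.71 and 1.25 and passed in 16, CUST_34 between 0.43 and 0.90 and passed in 14, CUST_35 between 0.41 and 0.87 and passed in 15, and CUST_18 between -1.15 and -0.36 and passed in 13. CUST_16, CUST_17 and CUST_36 passed in none. With the slide as a block the values were 0.73, 0.55, 0.46 and -0.70 for A_44_P210461, CUST_34, CUST_35 and CUST_18, none of which passed. CUST_36 turned to -0.0090 there. The slide with both groups alone gave the same values. With median centring A_44_P210461, CUST_34 and CUST_35 had 0.71, 0.44 and 0.41 and did not pass, and CUST_17 turned to -0.019. Without centring CUST_34 had 0.90 and CUST_18 -0.63, and with normexp and quantile normalization CUST_18 had -0.57, none of them passing. By the lowest spot CUST_18 had -0.36. With single arrays left out, changes ran between 0.83 and 1.06 for A_44_P210461, 0.53 and 0.71 for CUST_34, 0.51 and 0.71 for CUST_35, and -0.99 and -0.68 for CUST_18. The cause was not tested, though leaving out an array reduces the samples.

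Of the Gapdh and Ldha probes, 2 passed without centring, 1 with median centring, 0 with the slide as a block (limma), and 0 to 4 with arrays left out. Of all probes, 2471 passed, against 568 without centring, 1598 with normexp and 75th percentile centring, 7 with the slide as a block, 4465 with the replicate block, and 275 to 4514 with arrays left out. Rises and falls among them numbered 316 and 252 without centring, 500 and 1098 with normexp and 75th percentile centring, and 0 and 7 with the slide as a block. Under the replicate block the same 4 Gapdh and Ldha probes passed. The small difference of CUST_34 minus CUST_35 turned to -0.042 with normexp and quantile normalization, to -0.040 with normexp and 75th percentile centring and to -0.010 by the highest spot, and ran between -0.093 and 0.18 with arrays left out. That of CUST_16 minus CUST_17 ran between -0.040 and 0.22 with arrays left out. The other 7 pair differences kept their direction in all 13 alternatives.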
